A study of Mus musculus with 24 samples.

Results

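Macrophages that received LPS together with 4-hydroxyestrone (4-OHE1) for 24 h were compared with macrophages that received LPS alone for 24 h. Each group had 3 RNA-seq libraries, so 6 of the 24 libraries of the series enter this comparison. The series holds 4 treatments (both agents, 4-OHE1, LPS and ethanol vehicle) at 6 h and at 24 h. All cells were bone marrow-derived macrophages, grown for 7 days in 20 ng/mL macrophage colony-stimulating factor from the marrow of 8-week-old female C57BL/6J mice with no engineered allele. The LPS+4-OHE1 group received both agents at the doses of the single treatments, and the LPS group received LPS alone. LPS was used at 100 ng/mL and 4-OHE1 at 5 mM by the treatment protocol, which names the same concentrations for the stocks it dilutes, so the doses reached are uncertain. The labels do not say whether the 3 libraries of a group came from separate animals or from wells of one culture, and p-values then reflect only how these libraries vary, which may be technical. A gene was tested if it reached 1 FPKM (fragments per kilobase of transcript, relative to the library's reads) in at least 3 of the 6 libraries, which 10322 of 24537 genes did.

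LPS is a component of the outer membrane of Gram-negative bacteria. Macrophages sense it through Toll-like receptor 4 with Cd14. The receptor starts the NF-kB and AP-1 pathways, which switch on cytokines, chemokines and acute-phase genes, and a branch through IRF3 and interferon beta, which switches on interferon-stimulated genes. 4-OHE1 is a catechol metabolite of estrone. Catechol estrogens can be oxidised to quinones that react with thiols. Thiol-reactive compounds are known to release NRF2 from its inhibitor KEAP1, and NRF2 drives genes of glutathione synthesis and detoxification. ATF4 drives amino acid synthesis and transport when the translation factor eIF2 is phosphorylated, and HSF1 drives the heat shock proteins when proteins misfold.

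The 3 LPS+4-OHE1 libraries held an estimated 9787948, 12415103 and 11053182 reads, and the 3 LPS libraries an estimated 9951609, 11888286 and 8808611 reads. These depths were estimated from the FPKM values. Between 10209 and 10329 genes reached 1 FPKM in LPS+4-OHE1 libraries, against 9931 to 9978 in LPS libraries. All 14 macrophage markers examined passed the filter on low values. Their summed level was lower in LPS+4-OHE1 libraries (7404 to 8022 FPKM) than in LPS libraries (14650 to 16706 FPKM), mostly through the lysozyme gene Lyz2, which had 4101 FPKM in LPS+4-OHE1 libraries, against 10832 FPKM in LPS libraries. Lymphocyte and erythroid markers stayed at or near 0, with Cd3g, Cd8a, Nkg7 and Ncr1 at 0 in both groups. The neutrophil list summed to 82.3 to 112 FPKM in LPS+4-OHE1 libraries and 47.2 to 64.2 FPKM in LPS libraries. That sum came mainly from S100a8, at 96.5 FPKM in LPS+4-OHE1 libraries, against 48.8 FPKM in LPS libraries, while Camp was lower, at 0.443 FPKM in LPS+4-OHE1 libraries, against 4.84 FPKM in LPS libraries, and Ly6g, S100a9, Mpo and Retnlg were at 0 in every LPS+4-OHE1 library. The summed levels of the dendritic cell list were 1.37 to 2.10 FPKM with LPS+4-OHE1 and 5.39 to 6.46 FPKM with LPS, with Ccr7 the largest contributor in both. Of the other lists, stromal markers summed to 3.67 to 6.03 FPKM with LPS+4-OHE1 and 4.97 to 5.85 FPKM with LPS, endothelial markers to 3.56 to 4.63 FPKM with LPS+4-OHE1 and 2.75 to 3.77 FPKM with LPS, and mast cell markers to at most 0.272 FPKM in a library of either group. The part of these marker differences in the results was not tested. Fewer cells of a type and less RNA per cell cannot be told apart in such bulk libraries.

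The number of genes called higher or lower depended on how libraries were put on one scale. On FPKM values as deposited, 4223 genes (40.9%) were higher in LPS+4-OHE1 libraries and 1645 (15.9%) were lower at an adjusted p under 0.05, with a median log2 difference of 0.16 over all genes tested. After median-of-ratios scaling, 2427 (23.5%) were higher and 2925 (28.3%) were lower, with a median of -0.03. The scaling moved the log2 difference by a median of -0.20 and moved it up in 19 of 10322 genes, and 0 genes were called in opposite directions. Below, a gene is said to be higher, lower, risen or fallen only if it passed under both scalings, as 2427 higher genes (23.5%) and 1645 lower genes (15.9%) did. Of these, 628 (6.08%) were at least 2-fold higher and 459 (4.45%) at least 2-fold lower. Groups that do not overlap were common: whatever the call, every LPS+4-OHE1 library was above every LPS library in 4383 genes (42.5%) and below in 1819 (17.6%). Log2 differences are LPS+4-OHE1 minus LPS, from unscaled log2(FPKM + 0.5), with the standard error (SE) after ±, unless said otherwise.

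**Figure D1:**
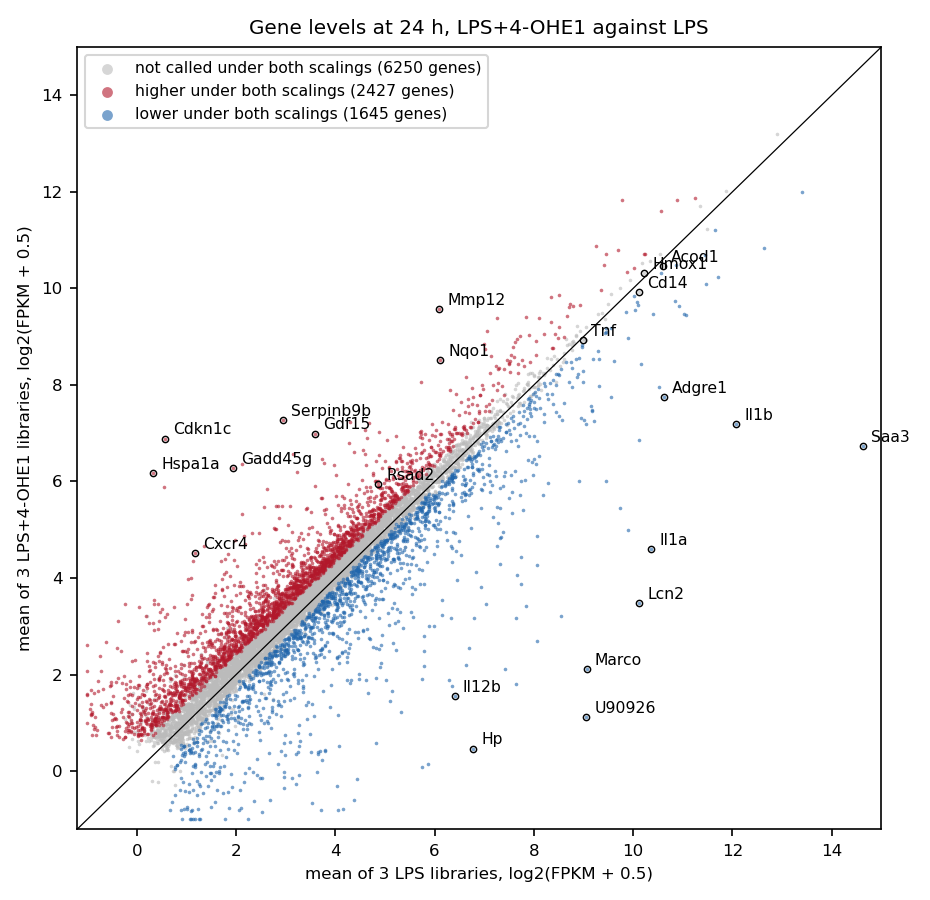
Mean level of each of the 10322 tested genes in the 3 LPS+4-OHE1 libraries (vertical axis) against the 3 LPS libraries (horizontal axis), both as log2(FPKM + 0.5), with genes called under both scalings in red (2427 higher) and blue (1645 lower). Saa3, Marco, Lcn2 and Il1a lie far below the line of equal levels, Cdkn1c, Hspa1a and Mmp12 lie far above it, and Tnf and Acod1 lie close to it.

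Among the 12 genes with the largest falls were Saa3, Marco and Lcn2. Saa3, an acute-phase serum amyloid (transcript at chr7:46711998-46715676, minus strand, mm10), had 134, 119 and 65.3 FPKM in LPS+4-OHE1 libraries, against 25390.5, 28169.5 and 22279.9 FPKM in LPS libraries (log2 difference -7.95 ± 0.36, adjusted p = 2.39e-09). Marco, a scavenger receptor that binds bacteria, had 4.68, 3.89 and 2.94 FPKM in LPS+4-OHE1 libraries, against 536, 581 and 483 FPKM in LPS libraries (log2 difference -6.96 ± 0.15, adjusted p = 1.40e-11). Lcn2, which encodes lipocalin 2, a protein that binds bacterial siderophores, had 15.4, 10.5 and 6.00 FPKM in LPS+4-OHE1 libraries, against 1135, 1184 and 1003 FPKM in LPS libraries (log2 difference -6.73 ± 0.33, adjusted p = 4.43e-09). The choice of these 12 genes required groups that do not overlap. For all 3 genes the highest LPS+4-OHE1 library stayed far below the lowest LPS library. U90926, annotated as a non-coding RNA, had the largest fall among the genes named, with 2.77, 1.56 and 0.7 FPKM in LPS+4-OHE1 libraries, against 529, 569 and 498 FPKM in LPS libraries (log2 difference -8.05 ± 0.26, adjusted p = 1.54e-10). The haptoglobin gene Hp (0.881 ± 0.458 FPKM, against 108 ± 13.5 FPKM), the NAD hydrolase gene Cd38 (0.611 ± 0.164 FPKM, against 57.7 ± 8.69 FPKM) and the complement factor B gene Cfb (8.84 ± 3.21 FPKM, against 371 ± 27.9 FPKM) also fell (mean ± SD, n = 3, LPS+4-OHE1 given before LPS). So did the arginine transporter gene Slc7a2 (5.96 ± 2.09 FPKM, against 266 ± 29.0 FPKM) and Ms4a4a (3.01 ± 0.988 FPKM, against 200.1 ± 15.1 FPKM). None of these genes exceeded 3 FPKM on average in vehicle-treated macrophages at 24 h, where Saa3 averaged 0.728 FPKM and Marco 0.412 FPKM.

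Among the 12 genes with the largest rises were Cdkn1c, Mmp12 and Gdf15. Cdkn1c, which encodes the cyclin-dependent kinase inhibitor p57 (transcript at chr7:143458339-143461050, minus strand, mm10), had 93.7, 121 and 139 FPKM in LPS+4-OHE1 libraries, against 1.38, 0.975 and 0.598 FPKM in LPS libraries (log2 difference 6.34 ± 0.18, adjusted p = 4.96e-11). Mmp12, the macrophage elastase gene, had 773, 734 and 764 FPKM in LPS+4-OHE1 libraries, against 62.8, 65.3 and 74.3 FPKM in LPS libraries (log2 difference 3.48 ± 0.07, adjusted p = 9.48e-12). Gdf15, a stress-induced cytokine gene of the TGF-beta family, had 118, 135 and 128 FPKM in LPS+4-OHE1 libraries, against 11.9, 12.3 and 10.5 FPKM in LPS libraries (log2 difference 3.40 ± 0.10, adjusted p = 9.07e-11). The groups did not overlap for any of the 3, which the choice of these 12 genes required. Gadd45g, a growth arrest and DNA damage gene, had 51.1, 75.7 and 103 FPKM in LPS+4-OHE1 libraries, against 3.46, 3.60 and 2.96 FPKM in LPS libraries (log2 difference 4.27 ± 0.21, adjusted p = 4.43e-09). Rpph1, the RNA component of RNase P, had 58.7, 78.3 and 109.7 FPKM in LPS+4-OHE1 libraries, against 4.34, 4.41 and 2.80 FPKM in LPS libraries (log2 difference 4.22 ± 0.35, adjusted p = 5.29e-07). Serpinb9b, a serine protease inhibitor gene, rose by 4.33 ± 0.09 on the log2 scale and Fxyd2, which encodes a regulator of the sodium pump, by 3.49 ± 0.22. Cxcr4, the receptor for the chemokine Cxcl12, rose by 3.36 ± 0.16, to a level below the 52.0 FPKM of vehicle cells. Gsta4, a glutathione transferase gene, had 176 reads in the 3 LPS+4-OHE1 libraries and 0 reads in the 3 LPS libraries, which makes it at least 54.1-fold higher when the LPS group is set to 3 reads over the group.

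Most pro-inflammatory cytokine genes were lower with both agents, but Tnf was not. Of 15 cytokine genes tested, 11 were lower and 1 was higher, with a median log2 difference of -2.73, against 0.16 over all genes tested. Il1b, the interleukin released after inflammasome activation, had 186, 157 and 95.3 FPKM in LPS+4-OHE1 libraries, against 4474, 4347 and 4162 FPKM in LPS libraries (log2 difference -4.94 ± 0.31, adjusted p = 3.63e-08). Il6, which drives the acute-phase response, had 20.5, 13.6 and 8.38 FPKM in LPS+4-OHE1 libraries, against 205, 185 and 252 FPKM in LPS libraries (log2 difference -3.95 ± 0.26, adjusted p = 6.30e-08). Il12b, a subunit shared by interleukins 12 and 23, had 4.22, 2.29 and 0.834 FPKM in LPS+4-OHE1 libraries, against 81.1, 84.5 and 86.8 FPKM in LPS libraries (log2 difference -5.02 ± 0.32, adjusted p = 4.19e-08). Every LPS+4-OHE1 library was below every LPS library for these 3 genes, and so it was for Il1a (-5.80 ± 0.19) and Il12a (-5.68 ± 0.14). For Il12b, Il1a and Il12a, which were among the 12 largest falls, the choice required this. The anti-inflammatory cytokine gene Il10 also fell, with 1.89, 1.86 and 2.30 FPKM in LPS+4-OHE1 libraries, against 4.95, 6.28 and 6.99 FPKM in LPS libraries (log2 difference -1.38 ± 0.15, adjusted p = 8.34e-06). Tnf, the tumour necrosis factor gene, had 519.8, 509 and 441 FPKM in LPS+4-OHE1 libraries, against 505, 523 and 486 FPKM in LPS libraries. Its groups overlapped, and its log2 difference was -0.05 ± 0.09 (adjusted p = 0.684) unscaled and -0.26 (adjusted p = 0.0298) after scaling. Tnfsf9, the ligand of 4-1BB, was the member that rose (0.70 ± 0.12).

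**Figure D2:**
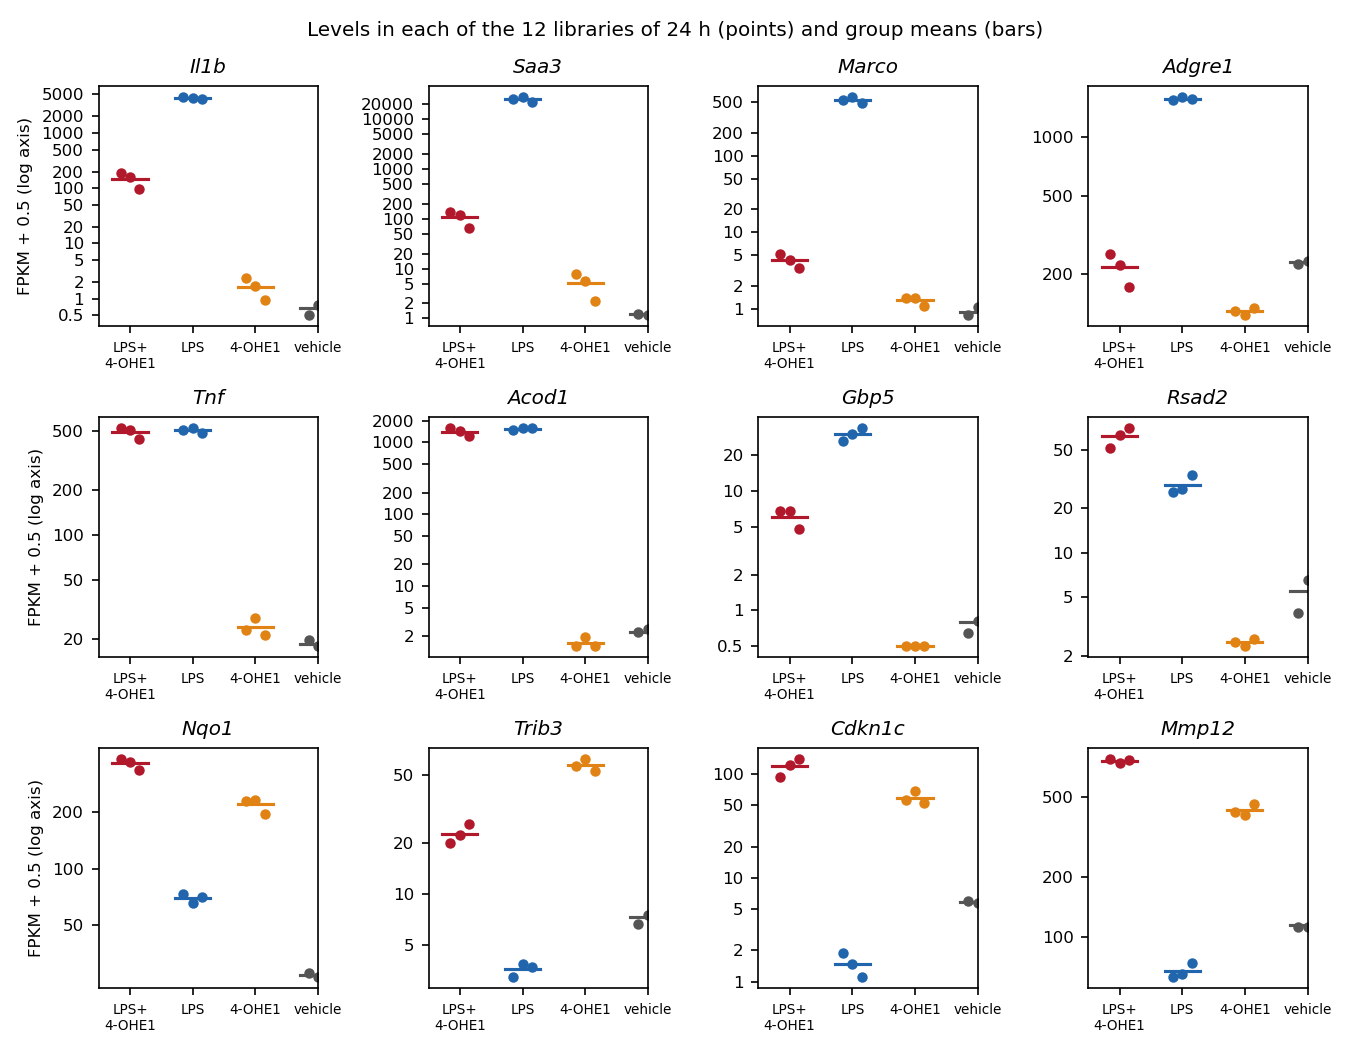
FPKM + 0.5 on log axes in the libraries of 24 h for 12 genes, with points for libraries and bars for group means. The horizontal axis ends at the middle of the vehicle group, so its last library lies outside the panels. Il1b, Saa3, Marco and Adgre1 sit far lower with LPS+4-OHE1 than with LPS, Tnf and Acod1 sit at similar levels, and Rsad2, Nqo1, Trib3, Cdkn1c and Mmp12 sit higher.

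Chemokine genes were mostly lower too, with 16 of 18 lower and 0 higher (median -1.47). Ccl2, the main attractant of monocytes, had 70.0, 64.0 and 58.7 FPKM in LPS+4-OHE1 libraries, against 696, 709 and 683 FPKM in LPS libraries (log2 difference -3.43 ± 0.09, adjusted p = 3.70e-11), and vehicle cells averaged 139 FPKM. Ccl7, another monocyte attractant, fell by 3.62 on the log2 scale (log2 difference -3.62 ± 0.12, adjusted p = 2.69e-10). Ccl5 fell less, with 1137, 1096 and 1053 FPKM in LPS+4-OHE1 libraries, against 2986, 3040 and 2526 FPKM in LPS libraries (log2 difference -1.38 ± 0.25, adjusted p = 4.18e-04). Cxcl9 (-2.61) and Cxcl10 (-1.41), attractants of T cells that interferon induces, both fell. The neutrophil attractants differed from each other. Cxcl3 had 1203 FPKM in LPS+4-OHE1 libraries, against 3345 FPKM in LPS libraries on average and fell (log2 difference -1.54 ± 0.36, adjusted p = 0.00278), whereas Cxcl2 had 2389 FPKM in LPS+4-OHE1 libraries, against 2867 FPKM in LPS libraries, with a log2 difference of -0.29 ± 0.14 (adjusted p = 0.105) unscaled and -0.50 (adjusted p = 0.0116) after scaling. Among receptors for chemoattractants, the formyl peptide receptor genes Fpr1 (88.0, 61.2 and 43.8 FPKM, against 463, 487 and 492 FPKM) and Fpr2 (11.2, 7.86 and 6.58 FPKM, against 116, 88.1 and 126 FPKM) fell, with LPS+4-OHE1 libraries listed before LPS libraries.

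The kappa B element, the site of NF-kB, was searched as GGGA and TTCC with any 2 bases between them, on both strands, in the 250 bases before each RefSeq gene start (GRCm38.p6). It stood in 1.53% of the 7988 tested genes that have a promoter in that table. It stood in 4 of 12 chemokine genes, 2 of 10 cytokine genes and 2 of 17 NF-kB subunit and inhibitor genes with a promoter there. The stretches around it are shown, with the element in capitals, because all 3 genes hold the searched pattern and had unlike differences at 24 h: Il6 fell by 3.95 and Cxcl3 by 1.54 on the log2 scale, and Cxcl2 was not called under both scalings.
Il6 (chr5:30013015-30013113, plus strand): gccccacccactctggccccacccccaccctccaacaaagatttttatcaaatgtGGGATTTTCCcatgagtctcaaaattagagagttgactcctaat
Cxcl3 (chr5:90785974-90786093, plus strand): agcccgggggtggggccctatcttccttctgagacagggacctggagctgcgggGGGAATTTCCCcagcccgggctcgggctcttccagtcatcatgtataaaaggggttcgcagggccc
Cxcl2 (chr5:90903748-90903867, plus strand): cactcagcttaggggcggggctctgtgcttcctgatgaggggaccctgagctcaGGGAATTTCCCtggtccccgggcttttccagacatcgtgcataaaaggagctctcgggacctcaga
A match describes these letters and does not show binding.

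Antimicrobial and acute-phase genes fell in 17 of 22 members and rose in 2 (median -2.08). Nos2, the inducible nitric oxide synthase, had 4.96, 4.21 and 2.77 FPKM in LPS+4-OHE1 libraries, against 29.5, 30.8 and 27.6 FPKM in LPS libraries (log2 difference -2.76 ± 0.16, adjusted p = 1.82e-08). Acod1, which makes itaconate from a citric acid cycle intermediate, had 1559.6, 1449 and 1226 FPKM in LPS+4-OHE1 libraries, against 1489, 1586 and 1576 FPKM in LPS libraries. The Acod1 groups overlapped, with a log2 difference of -0.14 ± 0.12 (adjusted p = 0.349) unscaled and -0.35 (adjusted p = 0.0278) after scaling. Ass1, which makes argininosuccinate from citrulline, rose (1.31 ± 0.14, with 129.9 FPKM in LPS+4-OHE1 libraries, against 51.6 FPKM in LPS libraries on average).

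Genes of lipid mediators moved in both directions. In the list of prostaglandin and leukotriene synthesis, 5 of 15 members rose and 5 fell, beside 23.5% and 15.9% of all genes. Ptgs2, the inducible cyclooxygenase, had 210.3, 161 and 118 FPKM in LPS+4-OHE1 libraries, against 332, 310.4 and 443 FPKM in LPS libraries (log2 difference -1.17 ± 0.21, adjusted p = 4.16e-04), and Ptges, which makes prostaglandin E2 from its product, fell by 2.47 (log2 difference -2.47 ± 0.17, adjusted p = 1.20e-07). Ptgs1, the constitutive cyclooxygenase, had 30.5, 31.5 and 28 FPKM in LPS+4-OHE1 libraries, against 5.25, 5.25 and 4.58 FPKM in LPS libraries (log2 difference 2.47 ± 0.08, adjusted p = 2.48e-10). The leukotriene genes Alox5 (1.57), Alox5ap (1.29) and Ltc4s (2.55) rose. Their groups did not overlap, as was so in that direction for 42.5% of all genes tested.

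Components and inhibitors of the LPS signal were mostly lower. Of 20 NF-kB subunit and inhibitor genes, 13 were lower and 2 were higher, with a median of -0.32. Nfkbia, the inhibitor IkB alpha, had 182, 178 and 157 FPKM in LPS+4-OHE1 libraries, against 355, 362 and 333 FPKM in LPS libraries (log2 difference -1.02 ± 0.07, adjusted p = 1.15e-07). Nfkb2 (-0.84), Birc3 (-0.88) and Traf1 (-0.89) fell too, while Nfkbid, a nuclear IkB protein, rose (0.83 ± 0.08). Among Toll-like receptors and adaptors, 11 of 21 fell and 7 rose. Tlr1 (-3.01), Tlr2 (-1.47), Tlr7 (-1.50) and Tlr8 (-3.26) fell, while Tlr9 (1.80), a sensor of DNA, rose. Tlr4, the LPS receptor itself, was also higher (0.63 ± 0.16, 14.8 FPKM in LPS+4-OHE1 libraries, against 9.57 FPKM in LPS libraries on average). Cd14, its co-receptor, had 1052, 984 and 873 FPKM in LPS+4-OHE1 libraries, against 1136, 1173 and 1020.5 FPKM in LPS libraries, with overlapping groups and a log2 difference of -0.20 ± 0.09 (adjusted p = 0.066) unscaled and -0.41 (adjusted p = 0.0014) after scaling.

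Feedback inhibitors of signalling differed in direction. The cytokine signalling inhibitors Socs1 and Socs3 fell: Socs1 had 11.1, 12 and 8.41 FPKM in LPS+4-OHE1 libraries, against 144, 133 and 116 FPKM in LPS libraries (log2 difference -3.59 ± 0.16, adjusted p = 1.88e-09), and Socs3 fell by 1.71 on the log2 scale (log2 difference -1.71 ± 0.11, adjusted p = 5.24e-08). Dusp1, a MAP kinase phosphatase gene, had 85.9, 91.3 and 108 FPKM in LPS+4-OHE1 libraries, against 21.9, 26.2 and 22.5 FPKM in LPS libraries (log2 difference 1.99 ± 0.11, adjusted p = 1.11e-08). Dusp4 (1.82) and Dusp5 (1.91) were also higher, while Dusp16 was lower (-0.86). Over this list of 18 genes, 5 rose and 8 fell, beside 23.5% and 15.9% of all genes. Of the inflammasome genes, 10 of 16 fell, among them Nlrp3 (-0.81), Mefv (-1.69) and Nlrc4 (-0.98), and the ATP receptor gene P2rx7 rose (1.64 ± 0.15).

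Interferon-stimulated genes were mostly lower, but some did not pass and 1 was higher. Of 49 tested, 38 were lower and 1 was higher (median -0.61). Ifit1, which binds viral RNA, had 62.2, 60.9 and 61.4 FPKM in LPS+4-OHE1 libraries, against 88.4, 82.8 and 107 FPKM in LPS libraries (log2 difference -0.58 ± 0.21, adjusted p = 0.0334), a call that was lost in 5 of the 6 fits that left out 1 library. Irf7, the interferon regulatory factor that amplifies the response, had 347, 347 and 286 FPKM in LPS+4-OHE1 libraries, against 440.5, 458 and 406 FPKM in LPS libraries (log2 difference -0.42 ± 0.10, adjusted p = 0.00415). Both were lower in every LPS+4-OHE1 library than in any LPS library. Ms4a4c (-4.41), Slfn4 (-3.34) and the nucleic acid sensor gene Zbp1 (-2.14) fell further. Rsad2, which encodes the antiviral enzyme viperin, was the member that rose, with 51.0, 62.8 and 69.8 FPKM in LPS+4-OHE1 libraries, against 25.4, 26.8 and 33.4 FPKM in LPS libraries (log2 difference 1.09 ± 0.18, adjusted p = 2.28e-04). Isg15, a ubiquitin-like modifier, averaged 265 FPKM in LPS+4-OHE1 libraries, against 348 FPKM in LPS libraries, with a log2 difference of -0.39 ± 0.17 (adjusted p = 0.0719) unscaled. In the list of interferon receptors, JAK-STAT and interferon regulatory factors, 8 of 18 fell and 2 rose, beside 15.9% and 23.5% of all genes. The list median was -0.04, against 0.16 over all genes tested. Jak2 (-2.49) and the interferon receptor genes Ifnar1 (-0.94) and Ifnar2 (-1.04) were among the largest falls in it.

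The guanylate-binding proteins and related immunity GTPases, which attack the vacuoles of intracellular microbes, fell in all 11 members that passed the filter, of 19 listed (median -1.50). Gbp5 had 6.28, 6.27 and 4.30 FPKM in LPS+4-OHE1 libraries, against 25.9, 29.8 and 33.3 FPKM in LPS libraries (log2 difference -2.31 ± 0.16, adjusted p = 1.21e-07). Gbp6 (-2.98), Gbp9 (-2.21), Gbp7 (-1.61) and Ifi47 (-1.58) fell with it. Members of this family share long stretches of sequence, so reads may be split between them.

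The interferon-stimulated response element, the site of interferon regulatory factors, was searched as GAAA and GAAA with any 2 bases between them, on both strands, in the same windows. It stood in 3.48% of tested genes with a promoter. It stood in 8 of the 9 guanylate-binding and immunity GTPase genes that matched, all of them lower, and in 16 of 38 interferon-stimulated genes, of which 11 were lower and 1 higher. The stretches of Gbp5 and Gbp2, which were lower, and of Rsad2, which was higher, are shown with Isg15 because all hold these letters (in capitals, read on either strand) and their directions differ.
Gbp5 (chr3:142496714-142496833, plus strand): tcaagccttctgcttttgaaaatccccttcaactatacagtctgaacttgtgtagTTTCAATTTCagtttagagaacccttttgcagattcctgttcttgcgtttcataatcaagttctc
Gbp2 (chr3:142620549-142620662, plus strand): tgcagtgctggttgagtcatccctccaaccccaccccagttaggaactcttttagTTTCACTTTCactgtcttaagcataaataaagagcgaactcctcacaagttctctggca
Rsad2 (chr12:26456508-26456627, minus strand): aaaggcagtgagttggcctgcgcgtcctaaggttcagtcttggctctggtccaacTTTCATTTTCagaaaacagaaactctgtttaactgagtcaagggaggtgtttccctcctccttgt
Isg15 (chr4:156200820-156200939, minus strand): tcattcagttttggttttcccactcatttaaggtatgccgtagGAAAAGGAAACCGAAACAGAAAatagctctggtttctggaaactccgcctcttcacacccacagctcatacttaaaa
In the Isg15 stretch several overlapping matches form one run.

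Surface receptor and antigen presentation genes were mostly lower with both agents. Adgre1, which encodes the macrophage marker F4/80, had 253, 223 and 170 FPKM in LPS+4-OHE1 libraries, against 1553, 1609.6 and 1564 FPKM in LPS libraries (log2 difference -2.89 ± 0.11, adjusted p = 4.42e-10), and vehicle cells averaged 229 FPKM. Csf1r, the receptor for macrophage colony-stimulating factor, had 874, 832 and 756 FPKM in LPS+4-OHE1 libraries, against 738, 739 and 671 FPKM in LPS libraries. Its log2 difference was 0.20 ± 0.06 (adjusted p = 0.0169) unscaled and -0.01 (adjusted p = 0.864) after scaling. Of 16 scavenger and uptake receptor genes, 10 fell and 4 rose, beside 15.9% and 23.5% of all genes. The Fc receptor gene Fcgr1 had 15.6, 12.6 and 12.4 FPKM in LPS+4-OHE1 libraries, against 121, 129.9 and 115 FPKM in LPS libraries (log2 difference -3.13 ± 0.09, adjusted p = 4.68e-11), and Fcgr2b (-3.32) and the scavenger receptor gene Msr1 (-1.70) fell as well. H2-Ab1, a chain of MHC class II, had 31, 28.6 and 26.0 FPKM in LPS+4-OHE1 libraries, against 164, 177 and 142 FPKM in LPS libraries (log2 difference -2.47 ± 0.09, adjusted p = 3.48e-10), and vehicle cells averaged 19.6 FPKM. H2-Eb1 (-1.51) and H2-Aa (-1.05) moved the same way, so that 6 of 9 class II genes were lower, while Ifi30, a lysosomal thiol reductase that unfolds antigens, was higher (1.03 ± 0.09). In class I presentation, 15 of 22 fell, including the immunoproteasome subunits Psmb8 (-1.23) and Psmb9 (-1.31) and the peptide transporter Tap1 (-0.91). Costimulation and adhesion genes fell in 13 of 18 members, with Clec4e, a receptor for mycobacterial lipid, at 313, 247 and 186 FPKM in LPS+4-OHE1 libraries, against 1368, 1257 and 1758 FPKM in LPS libraries (log2 difference -2.57 ± 0.17, adjusted p = 5.38e-08).

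**Figure D3:**
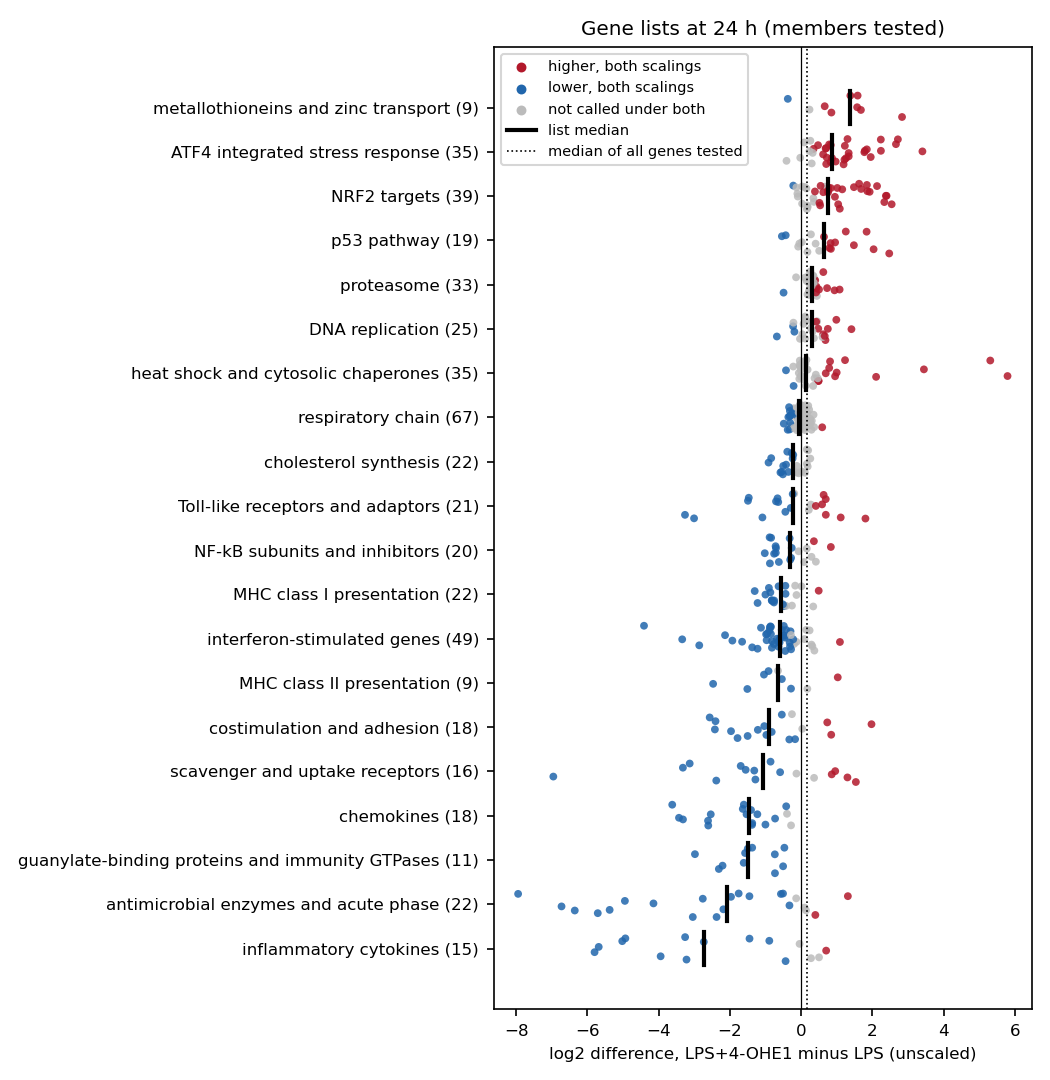
Log2 difference of LPS+4-OHE1 minus LPS at 24 h for every tested member of 20 gene lists, with red and blue points for members called higher or lower under both scalings and a black bar at the list median. Medians run from -2.73 for inflammatory cytokines to 1.38 for metallothioneins and zinc transport, beside a median of 0.16 over all genes (dotted line).

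NRF2 target genes were mostly higher. Of 39 tested, 25 rose and 1 fell (median 0.75). Nqo1, a quinone reductase, had 386, 372 and 337 FPKM in LPS+4-OHE1 libraries, against 72.4, 64.8 and 69.6 FPKM in LPS libraries (log2 difference 2.40 ± 0.07, adjusted p = 1.14e-10). Gclc, the catalytic subunit of the first enzyme of glutathione synthesis, had 82.8, 83.1 and 77.2 FPKM in LPS+4-OHE1 libraries, against 14.8, 15.1 and 15.7 FPKM in LPS libraries (log2 difference 2.38 ± 0.06, adjusted p = 3.03e-11). Gss, the second enzyme of that pathway, had 108, 117 and 109 FPKM in LPS+4-OHE1 libraries, against 20.1, 20.7 and 15.8 FPKM in LPS libraries (log2 difference 2.54 ± 0.10, adjusted p = 7.27e-10). The groups were far apart for all 3, and the modifier subunit Gclm (1.15), the peroxiredoxin gene Prdx6 (2.33), the glutathione transferase gene Mgst2 (2.13) and the thioredoxin reductase gene Txnrd1 (0.76) rose with them. Nqo1 averaged 219.7 FPKM with 4-OHE1 alone and 26.5 FPKM with vehicle.

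A pair of well-known NRF2 targets did not pass the test at 24 h. Hmox1, which degrades haem, had 1141, 1317 and 1386 FPKM in LPS+4-OHE1 libraries, against 1167, 1250 and 1160.1 FPKM in LPS libraries, with overlapping groups and a log2 difference of 0.10 ± 0.09 (adjusted p = 0.347). Slc7a11, the cystine importer, had 121, 110.3 and 103 FPKM in LPS+4-OHE1 libraries, against 89.1, 85.1 and 126 FPKM in LPS libraries, also overlapping, with a log2 difference of 0.17 ± 0.14 (adjusted p = 0.291). Vehicle cells averaged 1.09 FPKM of Slc7a11. Among regulators, Nfe2l2, which encodes NRF2, had 143, 134 and 131 FPKM in LPS+4-OHE1 libraries, against 78.7, 84.7 and 88.6 FPKM in LPS libraries (log2 difference 0.69 ± 0.06, adjusted p = 4.08e-07), and its competitor Bach1 (1.44) and partner Mafk (1.36) rose as well. Keap1 had a log2 difference of 0.34 ± 0.06 unscaled (adjusted p = 4.94e-04) and 0.14 (adjusted p = 0.0786) after scaling.

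The antioxidant response element, the site of NRF2, was searched as TGACNNNGC on both strands. It stood in 14.2% of tested genes with a promoter and in 11 of 33 NRF2 targets, of which 6 were higher and 0 lower. The stretches of Gclm and Txnrd1, which both rose, are shown with the element in capitals.
Gclm (chr3:122245368-122245486, plus strand): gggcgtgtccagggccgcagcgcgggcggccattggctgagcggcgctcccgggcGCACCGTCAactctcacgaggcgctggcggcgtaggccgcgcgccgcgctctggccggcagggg
Txnrd1 (chr10:82859059-82859177, plus strand): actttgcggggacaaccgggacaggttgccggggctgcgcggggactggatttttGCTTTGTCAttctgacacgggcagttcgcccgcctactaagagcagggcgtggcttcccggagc

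Metallothionein and zinc transporter genes were mostly higher. Of 9 metallothionein and zinc transporter genes, 7 rose and 1 fell. Mt1 had 195, 235 and 278 FPKM in LPS+4-OHE1 libraries, against 77.7, 93.4 and 66.4 FPKM in LPS libraries (log2 difference 1.57 ± 0.16, adjusted p = 4.10e-06), and Mt2 rose by 1.58 ± 0.19. The zinc importer gene Slc39a10 rose too (1.68 ± 0.10). Of 12 iron handling genes, 3 rose and 3 fell, beside 23.5% and 15.9% of all genes. The share that rose was near that of all genes. The largest fall in that list was that of Cp, which encodes the ferroxidase ceruloplasmin (-4.85 ± 0.14). The iron exporter ferroportin, Slc40a1, had 15.2, 17.2 and 15.5 FPKM in LPS+4-OHE1 libraries, against 2.77, 2.82 and 3.87 FPKM in LPS libraries (log2 difference 2.18 ± 0.10, adjusted p = 3.62e-09), and the ferritin light chain gene Ftl1 rose by 0.65 ± 0.13. Cd163, the haemoglobin scavenger receptor, fell (0.442, 0.55 and 0.474 FPKM, against 4.81, 4.43 and 4.40 FPKM, LPS+4-OHE1 libraries before LPS libraries). Of 17 mitochondrial and peroxide antioxidant genes, 3 rose and 4 fell, shares near the 23.5% and 15.9% of all genes. Sod2, the mitochondrial superoxide dismutase that NF-kB induces, had 202, 182 and 141 FPKM in LPS+4-OHE1 libraries, against 562, 605 and 565 FPKM in LPS libraries (log2 difference -1.73 ± 0.11, adjusted p = 4.30e-08), while the cytosolic Sod1 rose (0.99 ± 0.10). Prdx5, a peroxiredoxin, had 782, 726 and 615 FPKM in LPS+4-OHE1 libraries, against 2155, 2269 and 1846 FPKM in LPS libraries (log2 difference -1.56 ± 0.11, adjusted p = 8.98e-08).

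Genes of the ATF4 integrated stress response were higher in 28 of 35 members and lower in 0 (median 0.86). Atf4 itself had 228, 245 and 264 FPKM in LPS+4-OHE1 libraries, against 108, 119 and 95.8 FPKM in LPS libraries (log2 difference 1.19 ± 0.10, adjusted p = 5.51e-07). Ddit3, the transcription factor CHOP, had 80.8, 94.1 and 117 FPKM in LPS+4-OHE1 libraries, against 18.7, 23.3 and 18.5 FPKM in LPS libraries (log2 difference 2.24 ± 0.15, adjusted p = 9.11e-08). Trib3, a pseudokinase that ATF4 and CHOP induce, had 19.3, 21.6 and 25.3 FPKM in LPS+4-OHE1 libraries, against 2.70, 3.33 and 3.16 FPKM in LPS libraries (log2 difference 2.66 ± 0.11, adjusted p = 7.88e-10). Groups did not overlap for these genes. Ppp1r15a, which brings a phosphatase to eIF2, rose by 2.71 ± 0.16. Chac1, which degrades glutathione, rose by 1.95 ± 0.11 and Asns, the asparagine synthetase gene, by 1.33 ± 0.06. Trib3 averaged 56.7 FPKM with 4-OHE1 alone and 6.75 FPKM with vehicle. Asns stayed below its 53.8 FPKM in vehicle cells.

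The composite element bound by ATF4 with a C/EBP partner was searched as TGATGNAA on both strands. It stood in 2.48% of tested genes with a promoter and in 6 of 30 genes of the ATF4 list, of which 5 were higher. The stretches of Chac1 and Asns are shown with it in capitals.
Chac1 (chr2:119350994-119351111, plus strand): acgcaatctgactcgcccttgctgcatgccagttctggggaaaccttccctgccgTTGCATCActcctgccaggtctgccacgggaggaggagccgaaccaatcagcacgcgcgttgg
Asns (chr6:7693210-7693287, minus strand): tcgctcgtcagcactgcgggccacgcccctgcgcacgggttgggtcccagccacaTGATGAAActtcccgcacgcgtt

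A few chaperone genes rose by a large amount. Hspa1a, the inducible HSP70 gene, had 48.2, 65.8 and 101 FPKM in LPS+4-OHE1 libraries, against 0.647, 0.873 and 0.731 FPKM in LPS libraries (log2 difference 5.79 ± 0.22, adjusted p = 6.35e-10). Hspa1b is nearly identical to it, so reads cannot be assigned with certainty, and it had 44.2, 52.1 and 79.8 FPKM in LPS+4-OHE1 libraries, against 0.895, 0.869 and 1.09 FPKM in LPS libraries (log2 difference 5.31 ± 0.20, adjusted p = 5.07e-10). Both stood below 1.1 FPKM in every LPS library. The small heat shock gene Cryab had 7.91, 12.5 and 9.69 FPKM in LPS+4-OHE1 libraries, against 1.14, 0.192 and 0.259 FPKM in LPS libraries (log2 difference 3.44 ± 0.29, adjusted p = 5.45e-07). Over the whole list of heat shock and cytosolic chaperones, 12 of 35 rose and 2 fell, beside 23.5% and 15.9% of all genes. Its median of 0.15 was near that of all genes. After scaling alone, 12 were higher and 12 lower, with a median of -0.05. In the endoplasmic reticulum, 6 of 24 rose and 4 fell, shares near the 23.5% and 15.9% of all genes. After scaling alone 9 of the 24 were lower, beside 28.3% of all genes. The chaperone BiP, Hspa5, was at 824, 782 and 818 FPKM in LPS+4-OHE1 libraries, against 483, 491 and 478 FPKM in LPS libraries (log2 difference 0.74 ± 0.05, adjusted p = 3.58e-08). The mitochondrial protease genes Lonp1 (1.09), Clpp (0.65) and Afg3l2 (0.61) rose, among 7 higher and 2 lower of 15. Proteasome subunit genes were higher in 27 of 33 unscaled, beside 40.9% of all genes. Under both scalings 9 of 33 were higher, a share near the 23.5% of all genes. Psmd11 (1.08 ± 0.07) and Psmd8 (0.93 ± 0.08) had the largest rises among them.

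Cell cycle genes did not move as one group. Mki67, a marker of dividing cells, had 1.75, 2.38 and 1.94 FPKM in LPS+4-OHE1 libraries, against 13.3, 14.1 and 15.3 FPKM in LPS libraries (log2 difference -2.55 ± 0.12, adjusted p = 3.76e-09), and vehicle cells averaged 97.2 FPKM. Ccnf, a cyclin of the ubiquitin ligase SCF, had 7.13, 9.52 and 13.7 FPKM in LPS+4-OHE1 libraries, against 1.27, 1.12 and 1.18 FPKM in LPS libraries (log2 difference 2.60 ± 0.18, adjusted p = 1.19e-07). The directions of these 2 genes were opposite, and each had non-overlapping groups. Of 14 mitotic genes tested out of 30 listed, 5 rose and 1 fell, and of 25 replication genes 8 rose and 3 fell. Over all genes tested, 23.5% rose and 15.9% fell. Pcna, the sliding clamp of DNA polymerases, had 79.5, 81.1 and 94.2 FPKM in LPS+4-OHE1 libraries, against 33.3, 30.6 and 30.9 FPKM in LPS libraries (log2 difference 1.41 ± 0.07, adjusted p = 3.96e-09), below the 161 FPKM of vehicle cells. Ccnd1, the cyclin of early G1, had 8.71, 9.59 and 9.98 FPKM in LPS+4-OHE1 libraries, against 4.00, 3.06 and 3.69 FPKM in LPS libraries (log2 difference 1.29 ± 0.10, adjusted p = 2.13e-07), and vehicle cells averaged 228 FPKM. The kinase inhibitor gene Cdkn1a had 335, 362 and 348 FPKM in LPS+4-OHE1 libraries, against 189, 173 and 178 FPKM in LPS libraries (log2 difference 0.95 ± 0.05, adjusted p = 1.50e-08), and Myc rose (1.27 ± 0.09). Of 19 genes of the p53 pathway, 10 rose and 2 fell, with Plk2 (2.47), Bbc3 (2.03), Phlda3 (1.48) and Mdm2 (1.25) among those that rose.

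Cholesterol synthesis genes were lower in 12 of 22 members and higher in 0, with Stard4 (-0.92), Hsd17b7 (-0.84) and Fdps (-0.58) in front. Of 67 respiratory chain genes, 1 rose and 11 fell, and after scaling alone 29 were lower. Of 23 citric acid cycle genes, 3 rose and 3 fell. In glycolysis, 6 of 22 rose and 6 fell. Over all genes tested, 23.5% rose and 15.9% fell, and the shares that fell in the respiratory chain and the citric acid cycle and that rose in glycolysis were near these. The phosphofructokinase genes went apart: Pfkl had 18.7, 18.7 and 18.9 FPKM in LPS+4-OHE1 libraries, against 49.1, 51.6 and 46.2 FPKM in LPS libraries (log2 difference -1.36 ± 0.07, adjusted p = 6.18e-09), and Pfkp had 42.1, 43.6 and 44.6 FPKM in LPS+4-OHE1 libraries, against 16.4, 19.9 and 16.6 FPKM in LPS libraries (log2 difference 1.28 ± 0.07, adjusted p = 1.21e-08). Pfkfb3, which makes the activator of that enzyme, fell (-1.39 ± 0.08). Hif1a, the hypoxia-inducible factor that LPS also induces, had 33.2, 29.9 and 27.6 FPKM in LPS+4-OHE1 libraries, against 79.3, 76.4 and 98.0 FPKM in LPS libraries (log2 difference -1.46 ± 0.11, adjusted p = 2.10e-07), yet its target Vegfa rose (1.25 ± 0.13).

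Lipid and lysosome genes were divided. Lipa, the lysosomal acid lipase, had 553, 552 and 549 FPKM in LPS+4-OHE1 libraries, against 130, 124 and 142 FPKM in LPS libraries (log2 difference 2.06 ± 0.06, adjusted p = 9.49e-11), and vehicle cells averaged 707 FPKM. Ctsk (1.53), Gla (1.20), Gpnmb (1.04) and the proton pump subunit Atp6v0d2 (1.98) rose as well. Of 32 lysosomal genes, 9 were higher and 10 lower, beside 23.5% and 15.9% of all genes. The share that rose was near that of all genes. The list median was 0.05, against 0.16 over all genes tested. The cholesterol exporter genes moved oppositely. Abca1 had 11.8, 9.96 and 7.86 FPKM in LPS+4-OHE1 libraries, against 31.6, 33.7 and 39.4 FPKM in LPS libraries (log2 difference -1.78 ± 0.13, adjusted p = 2.27e-07), and Abcg1 had 12.3, 11.4 and 12.1 FPKM in LPS+4-OHE1 libraries, against 4.43, 4.23 and 3.95 FPKM in LPS libraries (log2 difference 1.40 ± 0.08, adjusted p = 1.09e-08). Pparg (1.58 ± 0.09) and the fatty acid binding protein gene Fabp4 (2.39 ± 0.20) rose.

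Immediate early genes were mostly higher. Of 20 AP-1 and immediate early genes, 13 rose and 4 fell. Fosl1, an AP-1 subunit, had 29.2, 29.5 and 31.9 FPKM in LPS+4-OHE1 libraries, against 5.03, 4.41 and 4.01 FPKM in LPS libraries (log2 difference 2.63 ± 0.09, adjusted p = 2.69e-10). Klf4 (1.92) and Egr2 (1.54) also rose, while Batf fell (-2.21 ± 0.13). Among growth and repair factors, 7 of 12 tested rose and 3 fell. Hbegf (2.75), the receptor genes Fgfr1 (2.69) and Tnfrsf12a (2.59), and Gas6, the ligand of the TAM receptors (2.22), rose. Of 19 protease and matrix genes, 8 rose and 6 fell, beside 23.5% and 15.9% of all genes. Against the rise of Mmp12, Mmp14 had 23.4, 20.1 and 12.7 FPKM in LPS+4-OHE1 libraries, against 266, 278 and 253 FPKM in LPS libraries (log2 difference -3.83 ± 0.19, adjusted p = 4.33e-09) and Mmp9 fell by 2.04 (log2 difference -2.04 ± 0.18, adjusted p = 7.40e-07). Serpinb2, an inhibitor of plasminogen activators, had 43.3, 28.9 and 22.4 FPKM in LPS+4-OHE1 libraries, against 908, 894 and 1062 FPKM in LPS libraries (log2 difference -4.95 ± 0.23, adjusted p = 3.37e-09). Enzymes and receptors of estrogens and catechols gave 2 higher and 5 lower of 10 tested, with Cyp1b1, which makes catechol estrogens, lower (-1.61 ± 0.28).

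The same comparison at 6 h used separate libraries, so the difference between the times could be tested. Among 10551 genes with the same transcript in both tables, 2846 (27.0%) had a positive and 2810 (26.6%) a negative time difference, which is the log2 difference at 24 h minus that at 6 h. For a gene that was lower at 6 h, a positive value means that the deficit was smaller at 24 h or had turned into an excess. Il1b, with the 24 h values given above, had 9.12, 9.75 and 6.72 FPKM in LPS+4-OHE1 libraries, against 2874, 2589 and 2563 FPKM in LPS libraries at 6 h. Its log2 difference was -4.94 at 24 h and -8.23 at 6 h (time difference 3.29 ± 0.37, adjusted p = 2.64e-07). Tnf had 594, 609.6 and 539 FPKM in LPS+4-OHE1 libraries, against 3059, 3055 and 2931 FPKM in LPS libraries at 6 h, where its log2 difference was -2.38 (time difference 2.33 ± 0.12, adjusted p = 3.97e-12). The Tnf groups overlapped at 24 h, while at 6 h every LPS+4-OHE1 library was below every LPS library. Positive differences held for 19 of 20 NF-kB subunit and inhibitor genes and 13 of 15 cytokine genes, and for Socs3 (2.83) and Nlrp3 (2.56).

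Stress genes had the opposite time difference. In the ATF4 list, 29 of 35 genes had a negative time difference and 3 a positive one, with Trib3 at -2.87, Chac1 at -2.85, Ddit3 at -2.29 and Sesn2, a sestrin that restrains mTORC1, at -3.38. Hmox1, whose groups overlapped at 24 h, had 8064, 8710.1 and 7233 FPKM in LPS+4-OHE1 libraries, against 1786, 1709.9 and 1779 FPKM in LPS libraries at 6 h. Its time difference was -2.08 ± 0.12, adjusted p = 8.65e-12. Lysosomal genes were negative in 24 of 32, and chaperones of the endoplasmic reticulum in 19 of 24. NRF2 targets were mixed, with 16 positive, among them Nqo1 (1.58), and 9 negative of 39.

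Other genes had a deficit at 24 h that was smaller or reversed at 6 h. Thbs1, the matrix protein thrombospondin 1, had 12.3, 11.4 and 6.79 FPKM in LPS+4-OHE1 libraries, against 226, 225 and 232 FPKM in LPS libraries at 24 h (log2 difference -4.46 ± 0.20, adjusted p = 2.28e-09). At 6 h it had 6.15, 5.87 and 6.97 FPKM in LPS+4-OHE1 libraries, against 10.7, 9.26 and 11.2 FPKM in LPS libraries, and the time difference was -3.79 ± 0.25, adjusted p = 8.31e-11. The Thbs1 groups were far apart at 24 h and within 2-fold of each other at 6 h. Gja1, the gap junction protein connexin 43, had 4.18, 2.83 and 2.63 FPKM in LPS+4-OHE1 libraries, against 31.4, 28.3 and 36.3 FPKM in LPS libraries at 24 h (log2 difference -3.15 ± 0.16, adjusted p = 7.34e-09). At 6 h it had 7.57, 6.70 and 5.62 FPKM in LPS+4-OHE1 libraries, against 3.83, 3.78 and 3.47 FPKM in LPS libraries, and the time difference was -3.90 ± 0.22, adjusted p = 1.17e-11. Its order was thus lower with both agents at 24 h and higher with both at 6 h. Arg1, arginase 1, had 0.07, 0.165 and 0 FPKM in LPS+4-OHE1 libraries, against 19.0, 17.8 and 15.2 FPKM in LPS libraries at 24 h and was under 0.32 FPKM in all 6 libraries at 6 h, so its time difference (-4.64) rests on the 24 h libraries. Cdkn1c had a larger excess at 24 h, with 24.5, 29.4 and 26.1 FPKM in LPS+4-OHE1 libraries, against 3.00, 3.85 and 2.96 FPKM in LPS libraries at 6 h and a time difference of 3.48 ± 0.22, adjusted p = 5.68e-11.

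Under both scalings, 191 genes were higher at 24 h and lower at 6 h, and 145 were lower at 24 h and higher at 6 h, all with a time difference past the threshold. Pdgfb, a chain of platelet-derived growth factor, had 34.4, 32.6 and 29.3 FPKM in LPS+4-OHE1 libraries, against 10.7, 11.3 and 9.56 FPKM in LPS libraries at 24 h. At 6 h it had 13.4, 12.3 and 15.0 FPKM in LPS+4-OHE1 libraries, against 40.9, 45.6 and 43.7 FPKM in LPS libraries, and the time difference was 3.21 ± 0.11, adjusted p = 1.04e-14. Cdkn1a (log2 difference 0.95 at 24 h and -0.87 at 6 h) and Nfkbid (0.83 at 24 h and -0.70 at 6 h) crossed in the same direction. Cd163 crossed the other way (-2.35 at 24 h and 0.50 at 6 h).

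**Figure D4:**
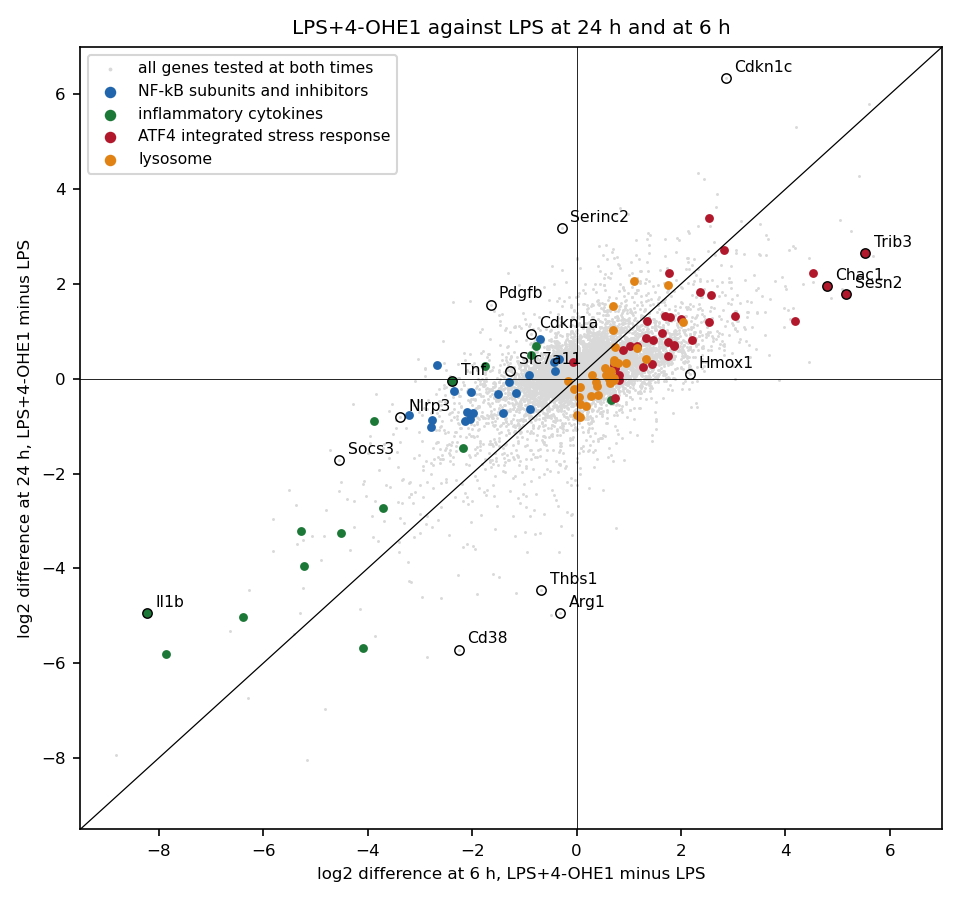
Log2 difference of LPS+4-OHE1 minus LPS at 6 h (horizontal axis) and at 24 h (vertical axis) for genes tested at both times, with 4 gene lists in colour and named genes circled. NF-kB subunits and inhibitors and cytokines lie mostly above the diagonal, ATF4 and lysosomal genes mostly below it, and Tnf lies at -0.05 at 24 h and -2.38 at 6 h.

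The 3 LPS+4-OHE1 libraries were not equally far from LPS. Among the 459 genes at least 2-fold lower, library 3 of LPS+4-OHE1 had the lowest value of its group in 287 (62.5%) and library 1 the highest in 263 (57.3%). Among the 628 genes at least 2-fold higher, library 3 had the highest value in 326 (51.9%) and library 1 the lowest in 340 (54.1%). Il1b at 95.3 FPKM and Saa3 at 65.3 FPKM in library 3 follow this order, as does Hspa1a at 101 FPKM. The LPS libraries were uneven too. Among the lower genes, LPS library 2 had the highest value of its group in 199 (43.4%) and LPS library 1 in 69 (15.0%). Among the higher genes, LPS library 3 had the lowest value of its group in 284 (45.2%). Without library 3 of LPS+4-OHE1, 458 of the 459 lower genes kept their call, as did 473 of the 478 higher genes that still reached 1 FPKM in 3 libraries.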

How the data were processed

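RNA of 24 mouse macrophage libraries (8 groups of 3) was sequenced by the authors, and 6 of them are compared here. The submitters' processing notes name the tools STAR, HOMER, edgeR and DESeq2 and the build mm10; tool versions are not given in the sources used here. The deposited FPKM values were written by HOMER per the file headers: exonic reads of a representative transcript, divided by its length and by the library's reads, with each time in a table of its own and no further scaling. Depth was 8127155 to 13339178 reads per library, and 100% of low values checked were whole reads within 0.1 read, so reads could be recovered. The authors' tables of other comparisons were not used.

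Values were tested as log2(FPKM + 0.5) with limma 3.58.1 in R 4.3.3 (empirical Bayes with trend, Benjamini-Hochberg adjusted p under 0.05 over all genes tested), which understates changes of low genes. The 12 libraries of 24 h shared a fit, and the 24 libraries of both times shared the fit of the time difference (genes at 1 FPKM in at least 3 of the 12 libraries compared). The fits were tested on simulated data. Median-of-ratios size factors were 0.965 to 0.978 for LPS+4-OHE1 and 0.825 to 0.854 for LPS. Libraries of a group varied beyond counting noise (2.86 to 9.89 for chi-square over its degrees of freedom). Each was counted as a sample, although such variation does not show that libraries came from separate animals. Promoter sequences came from RefSeq (GRCm38.p6), and 7988 of 10322 tested genes matched by symbol.

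Genes, lists and rules were chosen with earlier results of these data known. The rule names fixed benchmark genes, the 12 largest rises and falls called under both scalings whose groups do not overlap (at least 5 FPKM on average in a group), up to 5 called members per list, and the 8 largest time differences in each direction. Lyz2, S100a8, Camp, Dusp16, Tnfsf9, Cxcl2, Cxcl3, Ass1, Tlr4, Isg15, Gbp2 and the genes whose promoters are printed were picked after their values were seen.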

Additional observations from a re-analysis of the deposited data

Results flagged for a closer look

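The genes below differed between the times by the test of the difference itself (limma, LPS+4-OHE1 minus LPS at 24 h minus the same at 6 h, adjusted p under 0.05). Each value is that time difference on the log2 scale.

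Positive values, where the 24 h comparison stood higher than the 6 h one, were found for the secreted lipase gene Lipg (3.96), the nucleoside transporter gene Slc28a2 (3.75), Cdc42ep2 (3.52), the chemokine gene Cxcl11 (3.50), Cdkn1c (3.48), Serinc2 (3.46), Il1b (3.29) and Pdgfb (3.21). Among other genes of the text, Socs3 (2.83), Nlrp3 (2.56), Tnf (2.33), Cdkn1a (1.82), Nqo1 (1.58) and Nfkbid (1.53) were also positive.

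Negative values were found for Arg1 (-4.64), Ly6i (-4.50), Gja1 (-3.90), the cytokine gene Tnfsf14 (-3.90), Thbs1 (-3.79), Cd38 (-3.45), Sesn2 (-3.38) and Adgb (-3.36). The value of Cd38 turned to 0.39 with voom on recovered reads, and Cd38 was at 0 in the 3 LPS+4-OHE1 libraries of 6 h. Trib3 (-2.87), Chac1 (-2.85), Cd163 (-2.85), Ddit3 (-2.29) and Hmox1 (-2.08) were negative as well.

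The genes reached these values in unlike ways. Tnfsf14 was higher with LPS+4-OHE1 at 6 h and had a log2 difference of -0.03 at 24 h. Serinc2 had 48.3, 39.7 and 30.2 FPKM in LPS+4-OHE1 libraries and 4.21, 3.52 and 3.78 FPKM in LPS libraries at 24 h, with a log2 difference of -0.28 at 6 h. Lipg and Cxcl11 did not reach the expression filter of the 24 h comparison. No group held more than 3 libraries, so single libraries were not examined as outliers within groups.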

How the results depend on the processing

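Scaling had the largest effect on the 24 h comparison. After median-of-ratios scaling, 2427 genes were higher and 2925 lower, against 4223 and 1645 unscaled, and the log2 difference changed sign for Csf1r (-0.015), Hmox1 (-0.11) and Slc7a11 (-0.036). The other alternatives gave 3718 to 4628 higher and 1463 to 1761 lower genes, among them pseudocounts of 0.1 and 1, no filter, a stricter filter, robust empirical Bayes, voom on recovered reads and a fit of only the 6 libraries compared. Leaving out 1 library gave 3478 to 4195 higher and 1437 to 1573 lower genes, and where it left 2 libraries in a group, genes expressed in that group alone no longer passed the filter. The log2 difference of Tnf ranged from -0.091 to 0.028 over these fits, with 0.028 without library 3 of LPS+4-OHE1. For the time difference, leaving out 1 library gave 2616 to 2882 positive and 2480 to 2855 negative genes, and scaling gave 2981 and 2802. Cd38 was at 0 in the 3 LPS+4-OHE1 libraries of 6 h, and its time difference of -3.45 became 0.39 with voom on recovered reads. Over the 178 genes of the text, 2574 of 2606 alternative values at 24 h kept their direction and side of the threshold, as did 539 of 540 over the 27 genes of the time difference. Many of these genes were named for large called differences in these same data, so part of that agreement was set by the choice. Calls lost were those of Ifit1, Csf1r, Cxcl3 and Keap1. The cause was not tested.

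With the replicate number as a block, 4297 genes were higher and 1683 lower at 24 h, and 2796 were positive and 2782 negative for the time difference. Deviations of same-numbered libraries had correlations of -0.037, 0.077 and -0.007, and those of other pairs ran from -0.12 to 0.122. With 3 libraries per group these values cannot show whether a number marks a shared animal or culture, and the labels do not say. Depth limits genes near 1 FPKM most.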
